A study of Mus musculus with 20 samples.

Results

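Ion channels that shape the membrane potential and ion fluxes of microglia were followed in microglia with impaired TGF-beta signalling and in Control microglia at embryonic, juvenile and adult stages. The 8 genes were Kcnk13, Kcnk6, Kcna3, Kcnj2, Hvcn1, Trpv2, Trpm2 and Kcnn4. They were taken by symbol as channels known from microglia and macrophages, 8 of 24394 gene entries in the count table, and all 8 were among the 15568 genes with enough reads to be tested.

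Poly-A RNA of sorted microglia from 20 mice was sequenced. The T2MG libraries came from cells labelled as lacking TGF-beta signalling, and they numbered 3 at E16 (embryonic day 16), 3 at P15 (postnatal day 15) and 4 at P60 (postnatal day 60). Control libraries numbered 3 at E16, 3 at P15 and 4 at P60. The series concerns Tgfbr2, the type II TGF-beta receptor, with a single copy or both copies lost. What alleles the Control animals carried, and the Cre or promoter behind the deletion, is not stated in the material used here. The genotype entry of P60 T2MG 4 is blank, and that library was grouped by its title. A mixed C57Bl6 and FVB background is entered for every library. The surface markers used in the sort are not given either.

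Microglia rest at a negative potential that a potassium leak sets, and that potential bears on surveillance by their processes and on calcium entry. Loss of potassium from the cell is tied to inflammasome activation and the release of interleukin-1 beta. Tandem-pore and inward rectifier channels carry potassium near rest, voltage-gated and calcium-activated channels carry it after depolarization or calcium entry, and a proton channel balances the charge that the NADPH oxidase moves. TGF-beta is a cytokine on which adult microglia depend for their mature gene expression.

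The promoters of 3 of these genes are shown because they span the patterns that follow: Kcnk13 was lower in T2MG libraries at all 3 stages, Trpv2 at E16 and Trpm2 was higher at P15. Each runs 5′ to 3′ on the gene's strand over 300 bases, 250 before and 50 after the start site, from RefSeq on build GRCm38.p6. An entry was found for 6 of the 8 genes and for neither Kcnk6 nor Hvcn1. Capitals mark the letters CAGAC, or GTCTG on the other strand, which SMAD proteins of the TGF-beta pathway can bind, and the letters GAGGAA, or TTCCTC on the other strand, the core bound by the myeloid factor PU.1. The first motif occurred in 49.59% and the second in 28.28% of 32851 mouse promoter windows of the same length, searched on both strands. No match shown overlaps another.
Kcnk13 promoter: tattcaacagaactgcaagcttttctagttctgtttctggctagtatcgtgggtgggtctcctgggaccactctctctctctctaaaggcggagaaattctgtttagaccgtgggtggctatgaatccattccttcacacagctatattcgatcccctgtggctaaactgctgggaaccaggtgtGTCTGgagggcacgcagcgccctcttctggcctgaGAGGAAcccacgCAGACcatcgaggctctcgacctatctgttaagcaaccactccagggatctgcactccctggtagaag
Trpv2 promoter: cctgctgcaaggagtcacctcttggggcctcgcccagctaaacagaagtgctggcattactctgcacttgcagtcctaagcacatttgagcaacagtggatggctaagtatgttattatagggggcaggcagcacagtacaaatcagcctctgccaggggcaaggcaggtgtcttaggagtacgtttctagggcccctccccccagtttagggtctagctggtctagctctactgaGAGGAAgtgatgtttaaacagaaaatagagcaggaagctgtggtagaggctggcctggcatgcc
Trpm2 promoter: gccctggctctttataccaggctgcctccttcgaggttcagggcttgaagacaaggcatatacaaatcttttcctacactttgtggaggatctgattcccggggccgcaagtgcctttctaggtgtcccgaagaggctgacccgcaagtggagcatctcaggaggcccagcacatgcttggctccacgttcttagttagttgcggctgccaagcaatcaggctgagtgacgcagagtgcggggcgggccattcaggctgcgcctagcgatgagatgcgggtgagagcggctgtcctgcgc
The Kcnk13 window (chr12:99964249-99964548, plus strand) held 2 matches to the SMAD letters and 1 to the PU.1 letters. The Trpv2 window (chr11:62574236-62574535, plus strand) belongs to 1 of the starts listed for that gene and held 1 match to the PU.1 letters and 0 to the SMAD letters. The Trpm2 window (chr10:77969823-77970122, minus strand) held 0 matches to either. Among the windows not shown, that of Kcna3 held 3 matches to the SMAD letters and 2 to the PU.1 letters. The Kcnn4 window held 2 and 0, and the Kcnj2 window 1 and 2, for genes called at no stage between genotypes. A match describes letters in the window, not a bound site, and its relation to the levels was not tested.

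The libraries held 7456271 to 9241860 counts at E16, 14546425 to 16468744 at P15 and 12746382 to 16551240 at P60. Levels are in counts-per-million (CPM), with library sizes scaled by TMM. Microglial markers were present in every group: 12 of 12 had counts, with sums of 4424 to 6393 CPM in T2MG against 7957 to 16086 CPM in Control libraries at E16, 7450 to 12292 against 34765 to 51761 CPM at P15, and 14531 to 15861 against 59774 to 81366 CPM at P60. Border macrophage markers, with all 10 detected, summed to 9647 to 13910 CPM in P60 T2MG libraries and 59.2 to 611 CPM in P60 Control libraries. The sums were 3434 to 5911 CPM against 566 to 629 CPM at P15, and 2197 to 3383 CPM against 3267 to 3749 CPM at E16. Of the 10 markers, 0 were called at E16, 6 were higher at P15 and 10 higher at P60. Their part in the channel differences was not tested. Tgfbr2 ranged over 165 to 232 CPM in T2MG and 196 to 293 CPM in Control libraries at E16, 228 to 471 and 501 to 642 CPM at P15, and 452 to 647 and 551 to 649 CPM at P60. Its T2MG level was called lower at P15 (log2 fold change -0.71, edgeR adjusted p = 0.0305), and leaving out P15 Control 2 or 3 or P15 T2MG 1 or 3 brought the adjusted p to between 0.0581 and 0.132. The deleted exons are not stated in that material, so reads over the whole gene do not check the genotype. In sorted bulk RNA, fewer cells of a kind and less RNA per cell cannot be told apart. Neutrophil markers (9 of 9 detected in each group) summed to 8967 to 29814 CPM in P15 T2MG libraries, against 2583 to 7659 CPM in P15 Control libraries. P15 T2MG 3 had a monocyte marker sum of 22341 CPM, with 1602 to 4956 CPM in the other P15 libraries. P60 Control 1 had a neutrophil sum of 7314 CPM and a monocyte sum of 1852 CPM, with 83.1 to 145 and 144 to 352 CPM in the other P60 Control libraries. Of the endothelial markers 1 of 10 tested was lower at P15, of the erythroid markers 1 of 4 tested was higher at P60, and 0 of 7 B-cell markers tested were called at any stage.

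With T2MG set against Control, 3 of the 8 channel genes were called lower and 0 higher at E16 (edgeR, adjusted p under 0.05), where 2.67% of all genes tested were lower and 0.527% higher. At P15, 3 were lower and 1 higher, where 12.3% of all genes were lower and 11.7% higher. At P60, 4 were lower and 0 higher, where 15.7% of all genes were lower and 23.5% higher. Levels of the groups did not overlap for 4 of 8 at E16, 5 of 8 at P15 and 3 of 8 at P60, against 34.4%, 37.3% and 38.4% of all genes tested. The median log2 fold change of the 8 was -0.58, -0.55 and -0.95 at E16, P15 and P60, beside 0.04, 0.01 and 0.14 over all genes tested. Kcnk13 and Hvcn1 were called lower at each stage, Kcnk6 at P15 and P60, Trpv2 at E16 and Kcna3 at P60, and Trpm2 was called higher at P15. Kcnj2 and Kcnn4 were called at none of the 3 stages.

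**Figure D1:**
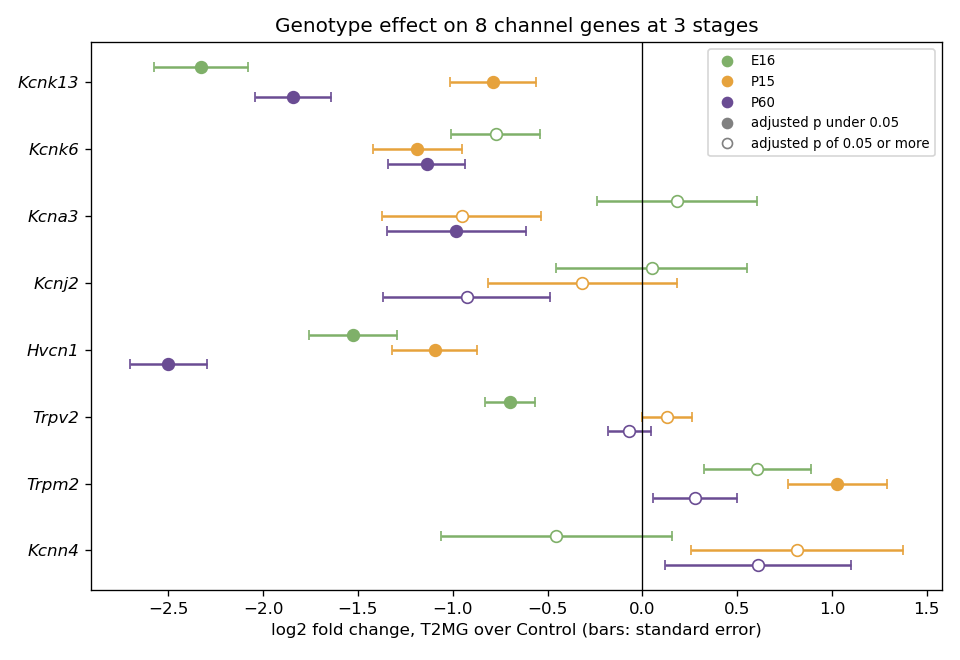
Log2 fold change of T2MG over Control (x axis) for each of the 8 channel genes at E16, P15 and P60, as points with the standard error. Filled points have an edgeR adjusted p under 0.05; Kcnk13 lies at -2.33, -0.79 and -1.84 and Hvcn1 at -1.53, -1.10 and -2.50, while Trpm2 lies to the right of 0 at each stage and is filled at P15.

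**Figure D2:**
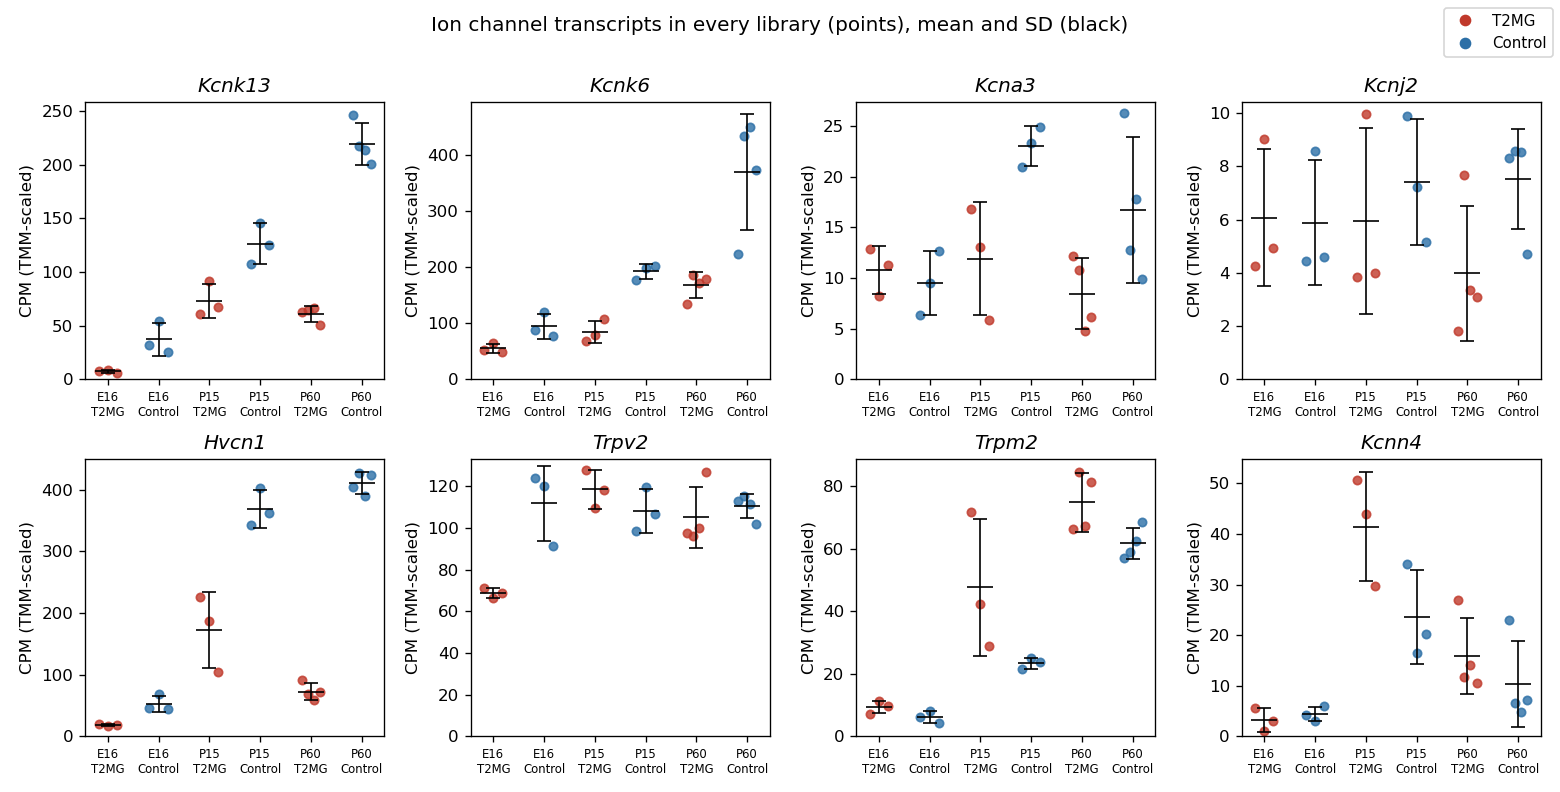
CPM of each of the 8 channel genes (y axes, each with its own range) in every library, grouped by stage and genotype, with the group mean and SD in black. Kcnk13 spans 50.3 to 66.3 CPM in P60 T2MG and 201 to 246 CPM in P60 Control libraries, and in the Kcnn4 panel P60 Control 1 lies at 23.1 CPM above the other 3 Control libraries of that stage.

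Levels between genes are compared per kilobase of annotated exon. In P60 T2MG libraries the order of mean CPM per kilobase was Kcnk6 (40.5), Trpv2 (23.4), Hvcn1 (20.4), Kcnk13 (19.6), Trpm2 (6.01), Kcna3 (4.45), Kcnn4 (3.11) and Kcnj2 (0.732). In P60 Control libraries it was Hvcn1 (115), Kcnk6 (89.1), Kcnk13 (70.5), Trpv2 (24.6), Kcna3 (8.78), Trpm2 (4.96), Kcnn4 (2.04) and Kcnj2 (1.39). The means of Hvcn1 and Kcnk13 thus stood above that of Trpv2 in P60 Control libraries and below it in P60 T2MG libraries. In P60 T2MG libraries the SDs were 3.27 for Trpv2, 3.89 for Hvcn1 and 2.36 for Kcnk13, and their order was not tested. The Hvcn1 level counts reads that a neighbouring gene may share, as set out with that gene.

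Kcnk13 encodes THIK-1, the tandem-pore leak channel that sets the microglial resting potential (chromosome 12, 99964499 to 100062682, plus strand, GRCm38). At E16 its level was 7.50, 8.87 and 5.93 CPM in the 3 T2MG libraries, against 31.7, 54.7 and 25.9 CPM in the 3 Control libraries. Every T2MG library lay below every Control library, and the mean was 5.03-fold lower. The log2 fold change was -2.33 (SE 0.25, adjusted p = 8.78e-05).

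At P15 Kcnk13 had 60.4, 91.3 and 67.4 CPM in T2MG libraries, against 108, 146 and 126 CPM in Control libraries. The groups did not overlap, and the log2 fold change was -0.79 (SE 0.23, adjusted p = 0.0171). That call was lost without P15 Control 2 (-0.67, adjusted p = 0.0701), without P15 T2MG 1 (-0.67, 0.068) and without P15 T2MG 3 (-0.74, 0.0602). At P60 it had 63.0, 64.9, 66.3 and 50.3 CPM in T2MG libraries, against 246, 217, 213 and 201 CPM in Control libraries. The gap at P60 was 3.59-fold between means (log2 fold change -1.84, SE 0.20, adjusted p = 1.25e-06), and leaving out any single library moved it only between -1.88 and -1.76.

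The genotype difference of Kcnk13 was smaller at P15 than at E16, by 1.54 on the log2 scale (edgeR interaction, SE 0.33, adjusted p = 0.00504), and it held without each library in turn (1.16 to 1.75). In that comparison 2 of 8 channel genes and 16.3% of all genes were called. At P60 the difference was wider again than at P15, by -1.05 (SE 0.30, adjusted p = 0.0374), but this was lost without any of 10 of the 14 libraries, with adjusted p-values up to 0.104. Across stages, T2MG libraries were 9.82-fold higher at P15 than at E16 (log2 fold change 3.30, adjusted p = 3.55e-08), and Control libraries 3.38-fold (1.76, adjusted p = 1.44e-05). Control libraries were higher again at P60 than at P15 (0.80, adjusted p = 0.0172; without P15 Control 1 0.0934 and without P15 Control 3 0.0577), whereas in T2MG libraries the change was -0.26 (adjusted p = 0.409). P15 T2MG and P60 T2MG overlapped in the order of levels, as did P60 T2MG and E16 Control.

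Kcnk6 encodes TWIK-2, a tandem-pore channel through which macrophages lose potassium after P2X7 activation (chromosome 7, 29221926 to 29232515, minus strand). At P15 it had 67.8, 79.4 and 107 CPM in T2MG libraries, against 177, 198 and 202 CPM in Control libraries. The groups were apart, and the log2 fold change was -1.19 (SE 0.24, adjusted p = 0.00144). At P60 the T2MG libraries had 135, 187, 172 and 179 CPM and the Control libraries 223, 433, 450 and 372 CPM, with the lowest Control value in P60 Control 1. Kcnk6 was again lower (-1.14, SE 0.20, adjusted p = 0.000254), and without P60 Control 1 and P15 T2MG 3 together the value was -1.32.

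At E16 Kcnk6 had 52.9, 64.1 and 49.0 CPM in T2MG libraries, against 87.6, 120 and 76.6 CPM in Control libraries. These groups did not overlap either, yet the log2 fold change of -0.77 (SE 0.24) had an adjusted p of 0.0859. Without E16 Control 3 it was called (-0.91, adjusted p = 0.0433). The level was higher at P15 than at E16 in Control libraries (1.02, adjusted p = 0.00171) and at P60 than at P15 in both T2MG (0.99, adjusted p = 0.00566) and Control libraries (0.94, adjusted p = 0.00888, but 0.0543 in a fit of those 7 libraries alone). In T2MG libraries the P15 level exceeded that of E16 by 0.61 (adjusted p = 0.0315), a call lost without E16 T2MG 1 or 3 or P15 T2MG 3 (0.41, adjusted p = 0.163, without the last), under RLE scaling (0.066) and in DESeq2 (0.0588). No difference of the Kcnk6 genotype effect between stages was called, with interaction values of -0.41, 0.05 and -0.36 and standard errors of 0.31 to 0.33.

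The tandem-pore list held 14 genes, of which 8 were tested. At E16 2 were lower and 0 higher, at P15 3 lower and 1 higher, and at P60 3 lower and 2 higher. Of all genes tested, 2.67% were lower and 0.527% higher at E16, 12.3% and 11.7% at P15, and 15.7% and 23.5% at P60. Each channel or partner list below is to be read beside the same shares. Beside Kcnk13 and Kcnk6, Kcnk12 (THIK-2), the closest relative of Kcnk13, was lower. It had 2.66, 1.66 and 2.92 CPM in T2MG against 10.8, 13.2 and 7.44 CPM in Control libraries at E16, and 2.73 ± 1.36 against 101 ± 16.1 CPM at P60 (SD, n = 4 each). Its groups were apart at every stage, with log2 fold changes of -2.11, -2.33 and -5.19 (adjusted p = 0.0066, 0.000192 and 9.51e-09). Kcnk1 (TWIK-1), a further member, was higher at P60 (21.6 ± 6.37 CPM in T2MG and 6.63 ± 7.62 CPM in Control, SD, n = 4 each), with a log2 fold change of 1.70 (adjusted p = 0.0153), and 2.92 without P60 Control 1. In a fit of the P60 libraries alone the Kcnk1 call was lost (adjusted p = 0.0684). At P15 Kcnk1 lay the other way, with 7.68 to 16.6 CPM in T2MG and 33.4 to 53.0 CPM in Control libraries, which did not overlap, though the value of -1.62 was not called (adjusted p = 0.0557). Its genotype effect was higher at P60 than at P15 by 3.31 (adjusted p = 0.0177), a call lost without P15 Control 3 (3.09, adjusted p = 0.0518).

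Kcna3 encodes Kv1.3, the voltage-gated potassium channel that appears on activated microglia and T cells (chromosome 3, 107036169 to 107038070, plus strand). An annotated antisense gene, Gm27008, spans all 1902 bases of its exon but has 0 exon bases there. Its P60 levels were 12.1, 10.8, 4.75 and 6.18 CPM in T2MG libraries, against 26.3, 12.8, 17.8 and 9.92 CPM in Control libraries. The groups overlapped, and the log2 fold change of -0.98 (SE 0.37) had an adjusted p of 0.0409. It was lost without P60 Control 1 (-0.68, adjusted p = 0.13), Control 3 (-0.95, 0.0761), T2MG 3 (-0.79, 0.12) or T2MG 4 (-0.86, 0.112).

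At P15 Kcna3 had 16.8, 13.1 and 5.80 CPM in T2MG libraries, against 21.0, 23.3 and 24.9 CPM in Control libraries. All T2MG values were below all Control values, while the test gave -0.95 (SE 0.42, adjusted p = 0.107). At E16 the values were 12.8, 8.22 and 11.3 CPM in T2MG and 6.34, 9.51 and 12.6 CPM in Control libraries, which overlapped (0.18, adjusted p = 0.86). The Control level was higher at P15 than at E16 (1.28, adjusted p = 0.0186, and 0.0778 without E16 Control 1). T2MG libraries differed by 0.14 between the same stages (adjusted p = 0.785). The difference between these changes, -1.13 (SE 0.59), was not called (adjusted p = 0.203). T-cell markers, whose cells also carry Kv1.3, summed to 220 to 319 CPM in P15 T2MG against 77.8 to 220 CPM in P15 Control libraries, and to 10.2 to 51.3 against 44.6 to 272 CPM at P60. Their part in the Kcna3 level was not tested.

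Of the 26 voltage-gated potassium channel genes listed, 24 were tested. At E16 1 was lower and 0 higher, at P15 2 lower and 4 higher, and at P60 3 lower and 4 higher. Of all genes tested, 12.3% were lower and 11.7% higher at P15, and 15.7% and 23.5% at P60. Kcnd1 (Kv4.1), an A-type channel, was lower at each stage. It had 4.56, 4.90 and 4.47 CPM in T2MG and 13.9, 29.7 and 15.4 CPM in Control libraries at E16. At P60 it had 3.03, 1.34, 1.79 and 1.72 CPM in T2MG and 85.0, 92.4, 104 and 99.5 CPM in Control libraries. The log2 fold changes were -2.08, -3.99 and -5.58 (adjusted p = 0.00364, 2.21e-06 and 4.66e-09), each without overlap. Kcnip3, which encodes a calcium-binding subunit of Kv4 channels, was lower at P15 (-1.86, adjusted p = 0.00119) and P60 (-2.13, adjusted p = 4.33e-05).

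Kcnj2 encodes Kir2.1, the inward rectifier seen in ramified and cultured microglia (chromosome 11, 111066164 to 111076821, plus strand). It was the lowest of the 8 per kilobase in P60 libraries of both genotypes. The P60 levels were 1.83, 7.66, 3.35 and 3.09 CPM in T2MG libraries, against 8.31, 8.59, 8.54 and 4.72 CPM in Control libraries. P60 T2MG 2 and P60 Control 4 lay across the gap between the groups, and the test gave -0.93 (SE 0.44, adjusted p = 0.103). Without P60 T2MG 2 it was called (-1.45, adjusted p = 0.0148). At P15 its values were 3.86, 9.99 and 4.01 CPM in T2MG and 9.89, 7.24 and 5.16 CPM in Control libraries (-0.32, adjusted p = 0.684), and at E16 4.27, 9.05 and 4.92 against 4.45, 8.60 and 4.61 CPM (0.05, adjusted p = 0.978). Counts of 26 to 157 per library lay behind these values, and both stages overlapped.

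Of 15 inward rectifier genes listed and 11 tested, 1 was higher and 0 lower at E16, 2 higher and 0 lower at P15, and 3 higher and 1 lower at P60. Kcnj16 (Kir5.1) averaged 13.9 ± 6.56 CPM in T2MG and 0.629 ± 0.165 CPM in Control libraries at E16, and 41.2 ± 14.7 and 3.90 ± 1.58 CPM at P60 (SD, n = 3 and 4). Its log2 fold changes were 4.46, 4.25 and 3.40 (adjusted p = 0.000997, 5.97e-05 and 2.53e-05), and 5.20 at P15 without P15 Control 2. Kcnj10 (Kir4.1), a channel of glia outside the myeloid lineage, was higher at P60 (15.8 ± 3.16 CPM in T2MG and 0.821 ± 0.572 CPM in Control; 4.24, adjusted p = 5.04e-05). Oligodendrocyte markers, of which all 10 were detected, moved with it, with all 10 called higher at P60 (median log2 fold change 2.82); their part in the Kcnj10 level was not tested. Astrocyte markers, from cells that also carry Kir4.1, were called higher for 9 of 10 and lower for 1 at P60, and summed to 189 to 335 CPM in T2MG and 216 to 285 CPM in Control libraries there.

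Hvcn1 encodes Hv1, the voltage-gated proton channel that extrudes the acid and balances the charge left by the NADPH oxidase (chromosome 5, 122206804 to 122242297, plus strand). At E16 it had 20.4, 16.8 and 17.8 CPM in T2MG libraries, against 46.1, 68.2 and 44.3 CPM in Control libraries. At P15 it had 226, 187 and 105 CPM in T2MG, against 342, 403 and 362 CPM in Control libraries. At P60 it had 91.6, 68.1, 58.7 and 72.4 CPM in T2MG, against 405, 427, 389 and 424 CPM in Control libraries. The groups were apart at all 3 stages, with log2 fold changes of -1.53 (SE 0.23, adjusted p = 0.00126), -1.10 (SE 0.23, adjusted p = 0.00189) and -2.50 (SE 0.20, adjusted p = 4.53e-08), and no single library changed a call. P15 T2MG 3 was the lowest P15 value, and without it the P15 change was -0.84.

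The Hvcn1 difference was larger at P60 than at P15, by -1.40 on the log2 scale (edgeR interaction, SE 0.30, adjusted p = 0.00976), in a comparison that called 2 of 8 channel genes and 8.02% of all genes. It held without each library in turn (-1.66 to -1.16). Set against E16 the widening at P60 was -0.97 (SE 0.30, adjusted p = 0.0287; 20.2% of all genes called), and it was lost without E16 Control 1 or 3, E16 T2MG 1 or 3, or P60 T2MG 3, with adjusted p-values of 0.0513 to 0.0815. Control libraries were 6.98-fold higher at P15 than at E16 (2.80, adjusted p = 1.79e-07) and differed by 0.16 between P60 and P15 (adjusted p = 0.63). T2MG libraries were 9.41-fold higher at P15 than at E16 (3.23, adjusted p = 3.06e-08) and then 2.37-fold lower at P60 than at P15 (-1.25, adjusted p = 0.000886). Among the 8 channel genes Hvcn1 was the sole one called lower in that last comparison, where 9.4% of all genes were lower, and Kcnk6 the sole one called higher, with 10.8% of all genes. Over all genes that balance turned with the scaling, with 1683 higher and 1463 lower under TMM, 1387 and 1768 under RLE, and 1741 and 2104 in DESeq2.

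**Figure D3:**
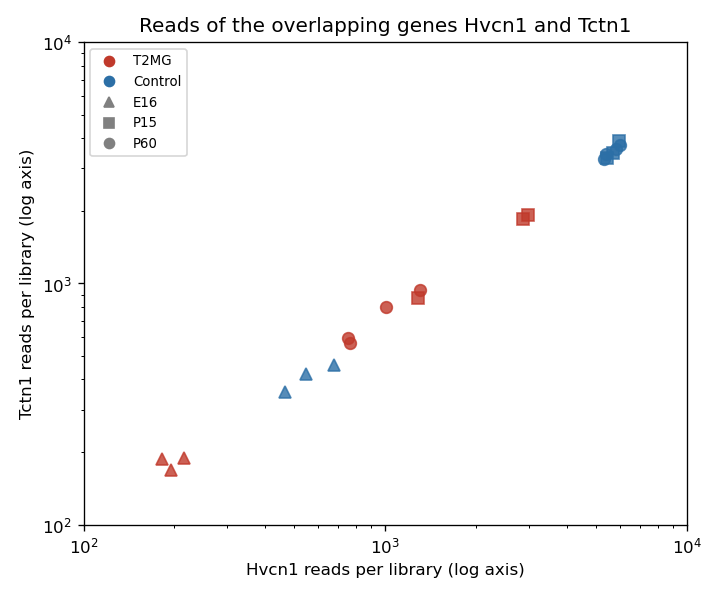
Reads of Tctn1 (y axis, log scale) against reads of Hvcn1 (x axis, log scale) in the 20 libraries, by genotype (colour) and stage (shape). The libraries line up along one diagonal, with 61.3 to 103 Tctn1 reads per 100 Hvcn1 reads.

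Of the 3563 exon bases of Hvcn1, 1574 are also exon bases of Tctn1, a gene of the ciliary transition zone on the opposite strand. Tctn1 was also the gene most like Hvcn1 over the 20 libraries (Pearson r = 0.999 on log2 CPM, as a description), as the plot of the reads of both genes shows. Tctn1 averaged 55.1 ± 8.64 CPM in P60 T2MG and 257 ± 9.25 CPM in P60 Control libraries (SD, n = 4 each; log2 fold change -2.22, adjusted p = 4.36e-08). Reads in the shared exons cannot be assigned to 1 of the pair without strand, so the Hvcn1 values may include Tctn1 reads and the reverse.

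The NADPH oxidase list, the partner of Hv1, held 8 genes, of which 7 were tested; 2 were lower and 0 higher at E16, 1 lower and 2 higher at P15, and 2 lower and 2 higher at P60. Ncf1 (p47phox), the organizing subunit, was lower with Hvcn1 at each stage (-1.29, -0.79 and -2.77, adjusted p = 0.0118, 0.0353 and 8.76e-08). Its E16 call was lost without E16 Control 1 or 2 or E16 T2MG 2 (adjusted p up to 0.0649), and its P15 call without any of P15 Control 1, 2 and 3 or P15 T2MG 2 (up to 0.114). Cyba (p22phox), a membrane subunit, was higher at P15 (1555 ± 214 CPM in T2MG and 661 ± 100 CPM in Control; 1.23, adjusted p = 0.00197) and P60 (1.00, adjusted p = 0.00155). Cybb (gp91phox), the catalytic subunit, had 806, 960, 848 and 938 CPM in P60 T2MG libraries, against 229, 16.8, 9.19 and 14.6 CPM in P60 Control libraries. P60 Control 1 was far above the other Control libraries, and the log2 fold change of 3.72 (adjusted p = 0.000743) was 6.03 without it.

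Trpv2 encodes a calcium-permeable TRP channel of phagocytes that heat and membrane stretch can open (chromosome 11, 62574486 to 62600515, plus strand). At E16 it had 71.0, 66.6 and 68.7 CPM in T2MG libraries, against 124, 120 and 91.1 CPM in Control libraries. The groups were apart, with a log2 fold change of -0.70 (SE 0.13, adjusted p = 0.00647). At P15 it had 128, 109 and 118 CPM in T2MG and 98.7, 119 and 106 CPM in Control libraries (0.13, adjusted p = 0.498). At P60 the levels were 97.6, 96.2, 99.8 and 127 CPM in T2MG and 113, 115, 111 and 102 CPM in Control libraries (-0.07, adjusted p = 0.665). The postnatal groups overlapped at both stages, and the 3 E16 T2MG libraries were below every other library of the series.

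Fitted with only the 6 E16 libraries, the E16 difference of Trpv2 was -0.74 (adjusted p = 0.0531). The genotype effect differed between stages: it was higher at P15 than at E16 by 0.83 (SE 0.19, adjusted p = 0.00664) and at P60 than at E16 by 0.63 (SE 0.17, adjusted p = 0.0157). The P15 difference held without each library, and the P60 difference was lost without E16 Control 1 (0.55, adjusted p = 0.0531). T2MG libraries were higher at P15 than at E16 (0.78, adjusted p = 8.08e-05), while Control libraries differed by -0.05 (adjusted p = 0.788). Neuron markers, all 12 of which had counts, summed to 953 to 1172 CPM in E16 T2MG and 326 to 729 CPM in E16 Control libraries. These sums stood beside the lower microglial sums given above. Of the 12 neuron markers, 0 were called between genotypes at E16, 4 were higher at P15 and 7 higher at P60. The part of neurons in the E16 differences was not tested.

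Trpm2 encodes a calcium-permeable channel that intracellular ADP-ribose and hydrogen peroxide open (chromosome 10, 77907722 to 77970563, minus strand). At P15 it had 71.7, 42.4 and 29.0 CPM in T2MG libraries, against 21.5, 25.0 and 23.7 CPM in Control libraries. The lowest T2MG library lay just above the highest Control library. The log2 fold change was 1.03 (SE 0.26, adjusted p = 0.00832); it was lost without P15 T2MG 1 (0.61, adjusted p = 0.0639) and in a fit of the 6 P15 libraries alone (1.01, adjusted p = 0.0671). Without P15 T2MG 3, the library with the high monocyte sum, it was 1.28 (adjusted p = 0.00115). P15 T2MG 1, which had the highest Trpm2 level at P15, also had the highest neutrophil sum of the 20 libraries, 29814 CPM. P15 T2MG 3, with the lowest Trpm2 level of the 3 T2MG libraries, had 26412 CPM, and P15 T2MG 2 had 8967 CPM. All 3 P15 T2MG neutrophil sums lay above those of P15 Control libraries. The part of those cells in the Trpm2 level was not tested.

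At E16 Trpm2 had 7.22, 11.3 and 9.75 CPM in T2MG and 6.34, 8.09 and 4.20 CPM in Control libraries (0.61, adjusted p = 0.274). At P60 it had 66.3, 84.7, 67.3 and 81.4 CPM in T2MG and 57.2, 58.9, 62.4 and 68.7 CPM in Control libraries (0.28, adjusted p = 0.343). Both pairs overlapped, and no difference of the genotype effect between stages was called (0.42, -0.75 and -0.33, SE 0.34 to 0.38), although without both P15 T2MG 3 and P60 Control 1 the effect at P60 was called lower than at P15 (-1.04, adjusted p = 0.025). Stage differences were called as well: Control libraries were 3.78-fold higher at P15 than at E16 (1.92, adjusted p = 3.46e-05) and 2.64-fold higher at P60 than at P15 (1.40, adjusted p = 0.00229). T2MG libraries were 5.07-fold higher at P15 than at E16 (2.34, adjusted p = 2.45e-06), and their further difference at P60 of 0.65 was not called (adjusted p = 0.0676; 1.07 and 0.00675 without P15 T2MG 1).

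Among 27 TRP genes listed, 15 were tested; 1 was lower and 0 higher at E16, 2 lower and 4 higher at P15, and 1 lower and 3 higher at P60. Trpv4, an osmotically sensitive relative of Trpv2, had 215 ± 39.5 CPM in P60 T2MG and 17.5 ± 9.21 CPM in P60 Control libraries (SD, n = 4 each; 3.61, adjusted p = 1.12e-07). Mcoln2 (TRPML2), an endolysosomal channel, was higher at P15 (3.36, adjusted p = 0.000518) and P60 (5.29, adjusted p = 1.66e-06, and 6.95 without P60 Control 1). Cd38, an enzyme that makes ADP-ribose, the ligand of TRPM2, was in a list of 16 genes of calcium entry and ADP-ribose metabolism, 15 of them tested. In that list 1 was lower and 0 higher at E16, 2 lower and 1 higher at P15, and 3 lower and 8 higher at P60. Cd38 had 536, 289, 539 and 253 CPM in P60 T2MG libraries, against 31.5, 2.84, 1.95 and 0.48 CPM in P60 Control libraries. Its log2 fold change was 5.12 at P15 (adjusted p = 0.000957) and 5.45 at P60 (adjusted p = 6.88e-05; 7.81 without P60 Control 1). Orai1 and Orai2, pores of store-operated calcium entry, were lower, Orai1 at E16 (-0.77, adjusted p = 0.0063, but 0.0531 in a fit of the E16 libraries alone) and P60 (-0.86, adjusted p = 3.18e-05), and Orai2 at P15 (-1.10, adjusted p = 2.91e-05) and P60 (-2.29, adjusted p = 8.2e-10).

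Kcnn4 encodes KCa3.1, the potassium channel that calcium opens through bound calmodulin (chromosome 7, 24370263 to 24386690, plus strand). At P15 it had 50.7, 44.0 and 29.7 CPM in T2MG libraries, against 34.0, 16.4 and 20.1 CPM in Control libraries. The groups overlapped, and the log2 fold change of 0.82 (SE 0.56) had an adjusted p of 0.305. The levels at P60 were 27.0, 11.7, 14.2 and 10.6 CPM in T2MG libraries, against 23.1, 6.53, 4.85 and 7.20 CPM in Control libraries. P60 Control 1, the library with the high neutrophil sum, lay inside the T2MG range, and the test gave 0.61 (SE 0.49, adjusted p = 0.346). Without P60 Control 1 the groups were apart and Kcnn4 was called higher (1.36, adjusted p = 0.0155), and the difference of the P60 from the E16 effect was called too (1.82, adjusted p = 0.0442). Neutrophil sums there were 1022 to 1926 CPM in P60 T2MG and 83.1 to 145 CPM in the other 3 Control libraries. Of 9 neutrophil markers tested over all P60 libraries, 1 was called higher and 1 lower, with a median log2 fold change of -2.53. P60 T2MG 1, with the highest Kcnn4 level, had a sum of 1316 CPM, below 1926 and 1838 CPM in T2MG 2 and 3. The part of neutrophils in the Kcnn4 difference was not tested. At E16 Kcnn4 had 5.70, 1.02 and 3.10 CPM in T2MG and 4.26, 3.14 and 5.98 CPM in Control libraries (-0.45, adjusted p = 0.738).

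**Figure D4:**
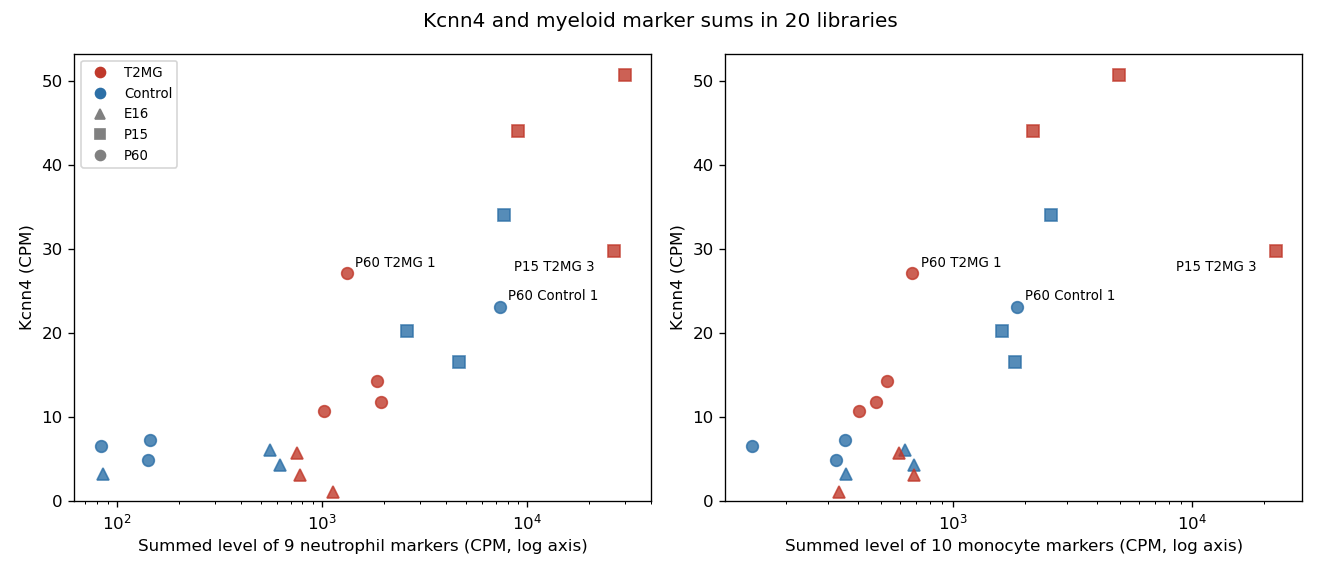
Kcnn4 level (CPM, y axes) against the summed level of 9 neutrophil markers (left) and 10 monocyte markers (right, both x axes in CPM on a log scale) in the 20 libraries, by genotype (colour) and stage (shape). P60 Control 1 lies at 23.1 CPM and a neutrophil sum of 7314 CPM, among the P15 libraries rather than with the other P60 Control libraries.

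Kcnn4 was higher at P15 than at E16 in T2MG libraries (12.7-fold; 3.66, adjusted p = 0.000102, and 4.32 without E16 T2MG 1) and in Control libraries (5.25-fold; 2.39, adjusted p = 0.00333). At P60 it was lower than at P15 by log2 -1.38 in T2MG (adjusted p = 0.0675) and -1.17 in Control libraries (adjusted p = 0.121; -1.93 and 0.00363 without P60 Control 1). The T2MG value was called without P60 T2MG 1 (-1.77, adjusted p = 0.0364), in DESeq2 (-1.44, 0.0295), with only the 7 libraries compared (-1.42, 0.0252) and without P15 T2MG 3 and P60 Control 1 together (-1.57, 0.015). Neutrophil sums ranged over 2583 to 29814 CPM in P15 and 85.3 to 1126 CPM in E16 libraries. The plot of Kcnn4 against the myeloid marker sums shows both. Within P15 the orders differed. P15 T2MG 3 had 29.7 CPM of Kcnn4 at a neutrophil sum of 26412 CPM. P15 T2MG 2 had 44.0 CPM at 8967 CPM, and P15 Control 1 34.0 CPM at 7659 CPM. The part of neutrophils in the Kcnn4 level was not tested. The genes most like Kcnn4 over the 20 libraries were Ctse (r = 0.95), S100a4 (0.94) and Plaur (0.94).

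The calcium-activated potassium channel list held 8 genes with Kcnn4 included, and 7 were tested; 0 were called at E16, 1 was lower and 1 higher at P15, and 1 lower and 2 higher at P60. Kcnma1 (BK) was lower at P15 (-3.27, adjusted p = 0.00252, and -4.89 without P15 T2MG 1) and P60. Its P60 level was 0.563, 0.0891, 0.078 and 0.0718 CPM in T2MG and 8.73, 15.8, 13.2 and 10.4 CPM in Control libraries (-5.80, adjusted p = 4.93e-06, and -7.08 without P60 T2MG 1). Of the list of 20 channel subunits and regulators, 18 were tested; 0 were called at E16, 3 were lower and 3 higher at P15, and 3 lower and 5 higher at P60. Calm2, a calmodulin gene, was lower at P60 (-0.81, adjusted p = 0.000124).

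Purine receptors, through which extracellular ATP reaches Kcnk13 and Kcnk6, were listed together with inflammasome genes. That list held 14 genes, all tested. Of these, 5 were lower and 0 higher at E16, 6 lower and 2 higher at P15, and 6 lower and 2 higher at P60. P2ry12, the ADP receptor of surveying microglia that couples to THIK-1, was lower at each stage (-3.86, -4.79 and -6.18, adjusted p = 0.000659, 1.21e-05 and 5.39e-08; -3.24 at E16 without E16 Control 2 and -5.62 at P15 without P15 T2MG 2). P2ry13 was lower as well (-2.20, -3.03 and -4.14). P2rx4, an ATP-gated cation channel, was higher at P15 (454 ± 17.4 CPM in T2MG and 122 ± 20.8 CPM in Control, SD, n = 3 each; 1.90, adjusted p = 8.98e-06) and P60 (2.22, adjusted p = 5.81e-08). P2ry12 is also in the microglial marker list. Of 35 further channels listed, 32 were tested; 5 were lower and 0 higher at E16, 6 lower and 5 higher at P15, and 7 lower and 6 higher at P60. Tpcn2, a lysosomal cation channel, was among the higher (1.22 at P15 and 1.72 at P60, adjusted p = 0.000173 and 2.79e-07), and P2rx1, an ATP-gated channel, among the lower (-1.53 at P15 and -3.24 at P60, adjusted p = 0.000819 and 4.98e-08).

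Between stages, 6 of 8 channel genes were called higher at P15 than at E16 in T2MG libraries and 0 lower, where 29.5% of all genes were higher and 31.3% lower. In Control libraries 6 of 8 were higher and 0 lower, where 24% of all genes were higher and 26.7% lower. Kcnk13, Kcnk6, Hvcn1, Trpm2 and Kcnn4 were in both sets, with Trpv2 in the T2MG and Kcna3 in the Control set. At P60 against P15, 1 was higher and 1 lower in T2MG libraries, where 10.8% of all genes were higher and 9.4% lower, and 3 were higher and 0 lower in Control libraries, where 5.61% of all genes were higher and 13% lower. The stages also differed in the share of the ribosomal RNA precursor Rn45s, which held 0.342% to 1.3% of E16 counts and at most 0.0474% later, and its part in stage differences was not tested.

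As a description over the 20 libraries, which fall into 6 groups and share depth by stage, the levels of Kcnk13 and Hvcn1 ran closest together among the pairs of channel genes (Pearson r = 0.94 on log2 CPM), followed by Kcnk13 and Kcnk6 (0.86). The genes of at least 10 mean CPM most like Kcnk13 were Laptm5, Blnk and Entpd1 (r = 0.98, 0.97 and 0.97). For Kcnk6 they included Nars (0.96). After Tctn1, Hvcn1 was most like Ctss and Selplg (0.98 and 0.97). Trpm2 was most like Tyw1, Slc19a1 and Pvrl4 (0.96, 0.95 and 0.95), and Trpv2 like Ptpn6, Clic1 and Htra2 (0.88, 0.87 and 0.87). By rank (Spearman) the Trpv2 values were lower, 0.61, 0.67 and 0.63. For Kcna3 the nearest were Ppp1r10, Unc119b and Rtn4ip1 (0.82, 0.81 and 0.81), and for Kcnj2 Mtap, Slc44a2 and Zbtb9 (0.68 each).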

How the data were processed

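Whole-number read counts per gene symbol, as the authors deposited them, were used for 20 libraries, with 1 column each and 0 columns without a sample. A Qiagen micro kit for RNA and a Clontech SMART-Seq ultra low input kit for cDNA are named in the labels' protocols. Per the submitters' processing notes, TopHat2 (0.7), Cufflinks (2.2.1) and mm10 were used. The counting tool and its use of strand were not given in the sources used here. The table held 24421 entries, and 27 that carried dates in place of symbols were left out.

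In R 4.3.3, edgeR 4.0.16 kept 15568 genes by its default expression filter, scaled libraries by TMM and fitted 1 quasi-likelihood model of 6 groups over all libraries (common dispersion 0.107). Genes with an adjusted p under 0.05 (Benjamini-Hochberg, over the 15568 genes) were called higher or lower. All adjusted p-values come from this test unless another tool is named, and fold changes are T2MG over Control, or the later stage over the earlier, on the log2 scale. The labels give 3 or 4 animals per group, and replicate libraries differed by far more than sampling noise (chi-square of 5.25 to 152 per gene). The scripts were tested on simulated data. Gene positions and exon lengths are from GENCODE on GRCm38. Amplified reads without molecular identifiers are not independent molecules.

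The 8 genes, the gene lists and the alternatives were chosen with earlier results of these data known. Named from each channel or partner list were up to 4 genes with the smallest adjusted p per genotype comparison, shown where they were called, and, for each of the 8, the 3 most similar genes of at least 10 mean CPM by Pearson correlation of log2 CPM (prior count 2). Some genes that this rule names are not reported here. Border macrophage, T-cell, B-cell, astrocyte, endothelial and erythroid markers were summed beside microglial, monocyte, neutrophil, neuron and oligodendrocyte markers. The alternatives were RLE scaling, no expression filter beyond 1 count, DESeq2 1.42.0, the replicate number as a block, fits of only the groups compared and leaving out each library. Leaving out P15 T2MG 3 and P60 Control 1 together was added after seeing the data.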

Additional observations from a re-analysis of the deposited data

Results flagged for a closer look

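In groups of 4 libraries, 16 sets of values were checked for 1 library far from the other 3, a check that chance trips in about 1 of 20 sets. It singled out Kcnj2 in P60 Control 4 (4.72 CPM, with 8.31 to 8.59 CPM in the other 3), Trpv2 in P60 T2MG 4 (127 CPM, with 96.2 to 99.8 CPM) and Kcnn4 in P60 Control 1 (23.1 CPM, with 4.85 to 7.20 CPM).

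The genotype effect, T2MG over Control, differed between stages for 3 of the 8 genes by the edgeR interaction test. Of all genes tested, 16.3% were called for P15 minus E16, 8.02% for P60 minus P15 and 20.2% for P60 minus E16. For Kcnk13 the effect at P15 was higher than at E16 by 1.54 on the log2 scale (-0.79 at P15 and -2.33 at E16), and at P60 it was lower than at P15 by -1.05 (-1.84 at P60). For Hvcn1 the effect at P60 was lower than at P15 by -1.40 and than at E16 by -0.97 (-2.50 at P60, -1.10 at P15 and -1.53 at E16). For Trpv2 the effect at P15 was higher than at E16 by 0.83 and at P60 than at E16 by 0.63 (0.13 at P15, -0.07 at P60 and -0.70 at E16). The Kcnk13 call for P60 minus P15 was lost without any of 10 single libraries. The Hvcn1 call for P60 minus E16 was lost without E16 Control 1 or 3, E16 T2MG 1 or 3, or P60 T2MG 3. The Trpv2 call for P60 minus E16 was lost without E16 Control 1 and with the replicate block.

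Outside the 8 genes, the edgeR interaction test gave a difference for the tandem-pore gene Kcnk1. Its genotype effect was higher at P60 than at P15 by 3.31 (1.70 at P60 and -1.62 at P15). That call was lost without P15 Control 3 (3.09, edgeR adjusted p = 0.0518).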

How the results depend on the processing

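The 34 called results for the 8 genes were recomputed under the alternatives, which gave 456 pairs of a result and a setting. Of these pairs, 417 stayed on the same side of the threshold in the same direction, 39 lost the call and 0 reversed. The count of all genes called at E16 was 862 in DESeq2 (33.5% of them higher, against 16.5%), 276 with the replicate block and 319 with only the groups compared. With only the groups compared, P15 gave 2209, the P60 minus P15 effect 712, and Control at P60 against P15 1118. DESeq2 gave 2288 for the P60 minus P15 effect (58.1% higher, RLE 59.9%, against 70.1%). Without both P15 T2MG 3 and P60 Control 1, the counts were 2663 for that effect, 5190 for P60 minus E16 and 5667 for Control at P60 against P15. RLE moved the median P60 minus E16 effect of all genes to 0.05, against 0.15 under TMM.

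Leaving out 1 library at a time gave 148 genes (without E16 Control 2) to 961 genes (without E16 Control 3) at E16, and 192 to 270 without any other single E16 library. It gave 2470 (without P15 Control 3) to 4086 at P15, and 1411 (without E16 Control 1) to 3191 for P15 minus E16, with 1681 without P15 Control 3. For P60 minus P15 it gave 580 (without P15 Control 3) to 2665 (without P60 Control 1), with 758 without P15 Control 1 and 802 without P60 T2MG 4. For Control at P60 against P15 it gave 1293 (without P15 Control 1) to 4944 (without P60 Control 1), with 1513 without P15 Control 3 and 1644 to 1695 without P60 Control 2, 3 or 4. Members called ranged from 2 to 4 at P15 (2 without P15 T2MG 1), from 1 to 2 for P60 minus P15 (1 without any of 10 libraries) and from 0 to 3 for P60 minus E16 (0 without E16 Control 1, 3 without P60 Control 1).

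Same-numbered libraries of a stage did not all deviate together (correlations of -0.0631 to 0.333 over 10 pairs, 4 of them over 0.1), so the numbers were not taken to pair samples. With the replicate block, Kcnk6 at E16 was called (-0.76, adjusted p = 0.0325), as were Kcnj2 at P60 (-1.06, 0.049) and Kcnn4 at P60 against P15 in Control (-1.17, adjusted p = 0.0475) and T2MG (-1.38, 0.0221), while Trpv2 lost its calls at E16 (-0.69, 0.0518) and for P60 minus E16 (0.61, 0.0576, leaving 1 member called). It changed no other call of the 8 genes.

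The signs that turned belonged to results of the 8 genes that were not called. Leaving out 1 library at a time gave log2 values for Kcna3 of -0.038 to 0.45 at E16, -0.19 to 0.47 in T2MG at P15 against E16, and -0.35 to 0.30 for P60 minus P15. For Kcnj2 it gave -0.35 to 0.42 at E16, -0.97 to 0.035 for P15 minus E16, -0.63 to 0.37 in T2MG at P15 against E16, -1.11 to 0.014 in T2MG at P60 against P15, and -0.18 to 0.28 in Control at P60 against P15. The P60 minus P15 effect was -0.13 to 0.25 for Kcnk6 and -0.59 to 0.54 for Kcnn4. In Control, Trpv2 gave -0.17 to 0.036 at P15 against E16 and -0.041 to 0.11 at P60 against P15. RLE and DESeq2 each gave -0.042 for Kcnk6 in P60 minus P15, and the block 0.084 for Kcna3 there and -0.00067 for Trpv2 in Control at P60 against P15. Without both P15 T2MG 3 and P60 Control 1, Kcnn4 in P60 minus P15 was 0.35, and Kcnj2 was -0.026 in Control at P60 against P15 and 0.19 in T2MG at P15 against E16. DESeq2 gave no adjusted p for Cybb at P60. The causes of these changes were not tested. Libraries of E16 were the shallowest, which limits the precision of low genes such as Kcnn4 and Kcnj2 there.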
